A study of Mus musculus with 6 samples.

Results

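The small leucine-rich proteoglycans (SLRPs) are secreted matrix proteins of the decorin family. The 10 SLRP genes described here, Dcn, Bgn, Aspn, Fmod, Lum, Prelp, Omd, Ogn, Chad and Podn, were taken by symbol from a table of 45706 genes, and all 10 were found. Expression was measured by RNA sequencing in fibroblasts grown out of the lungs of wild-type mice, in 3 control samples without added DKK1 and 3 samples given recombinant mouse DKK1 for 24 hours at 30 ng/ml. All cells came from collagenase-digested lung that was seeded on plastic in medium with serum and kept for days before the cells were detached and purified, so both groups are cultured, adherent cells. DKK1, or Dickkopf-1, is secreted by cells and blocks canonical Wnt signalling by occupying LRP5 and LRP6, the co-receptors of Wnt ligands. The labels number the samples of each group 1 to 3 and do not say what animal or culture a number stands for, so the spread between samples may be partly technical. The age, sex and strain of the mice and the hours of the control cultures are not given in the sources used here.

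An SLRP consists of a core of leucine-rich repeats that folds into a curved solenoid, and most members carry chondroitin, dermatan or keratan sulfate chains attached to it. The curved core lies on collagen fibrils and affects how they assemble and how wide they grow, and several members also bind growth factors of the TGF-beta family. In lung, fibroblasts are the main source of decorin, biglycan and lumican, which sit around the collagen of airways, vessels and alveolar walls.

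The 6 libraries held from 22565917 to 34727102 expected counts. The main axis of variation over all tested genes, which held 33.4% of the variance of log2 CPM (expected counts scaled by library total, the standard CPM unit), set replicate 3 of both groups apart from replicates 1 and 2, and the next, with 25.5%, separated the DKK1 samples from the controls. The 8 fibroblast markers examined, among them Col1a1, Pdgfra and Thy1, were all detected and summed to 13340 to 15050 CPM in control and 12550 to 14220 CPM in DKK1 libraries. The fibroblast sum was lower with DKK1 in each same-numbered pair. In the edgeR fit with the replicate number as a block, described below, 5 of the 8 markers were called lower and 1, Pdgfra, higher. Over all tested genes that fit called 4.46% lower and 4.96% higher. Markers of other cell types were far lower but not absent. The 7 epithelial markers summed to 92.9 and 90.9 CPM in the replicate 3 libraries of control and DKK1 cells, against 26.3 to 34.7 CPM in the other 4 libraries. The 5 endothelial markers summed to 52.9 and 49.9 CPM in replicate 3 and to 13.1 to 22.3 CPM elsewhere, and the 7 leukocyte markers to 78.1 and 69.8 CPM against 40.9 to 43.7 CPM, with Cd3e and Ly6g at 0 in all libraries. The part of these cells in the results below was not tested, and in such bulk samples fewer cells of a type and less RNA per cell cannot be told apart. The SLRP genes are therefore also given without replicate 3.

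The 10 genes spanned a wide range of levels. To compare genes with each other, counts were divided by the median length of each gene's transcripts and scaled to the same total in every library. On this scale Bgn, which encodes biglycan, stood at 3003 ± 151 in control and 2862 ± 189 in DKK1-treated cells (SD over n = 3 each). Prelp followed at 161 ± 28.5 and 171 ± 33.2. Dcn, the decorin gene, came next at 28.9 ± 5.59 and 44.0 ± 3.64. Over the 6 libraries the ranges of these 3 genes did not touch: 2660 to 3130 for Bgn, 133 to 199 for Prelp and 23.5 to 46.4 for Dcn. Fmod (11.8 to 16.1), Ogn (8.23 to 11.7) and Podn (6.98 to 12.4) formed a middle group in which the ranges of Ogn and Podn overlapped and that of Podn overlapped Fmod. With the longest transcript of each gene as its length, Ogn (17.1 to 24.7) stood above Fmod (14.5 to 19.8), so the order of these neighbours depends on the length used. Aspn (0.977 to 1.85) and Lum (0.907 to 1.39) overlapped each other well below that group. Omd had 3 to 19 counts and Chad 1 to 4 counts per library, and neither passed the filter on low counts, so 8 of the 10 genes were tested. Biglycan transcripts alone made up 92.9% ± 0.554 of the summed SLRP level per length in control and 92.0% ± 0.657 in DKK1-treated cells (SD, n = 3 each; two-sided exact permutation p = 0.2, with 0.1 the lowest that 3 samples against 3 allow). That test takes no account of the replicate numbers; within same-numbered pairs the share was lower with DKK1 in 3 of 3, at 92.2% against 91.3%, 93.1% against 92.0% and 93.3% against 92.6% for numbers 1, 2 and 3.

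**Figure D1:**
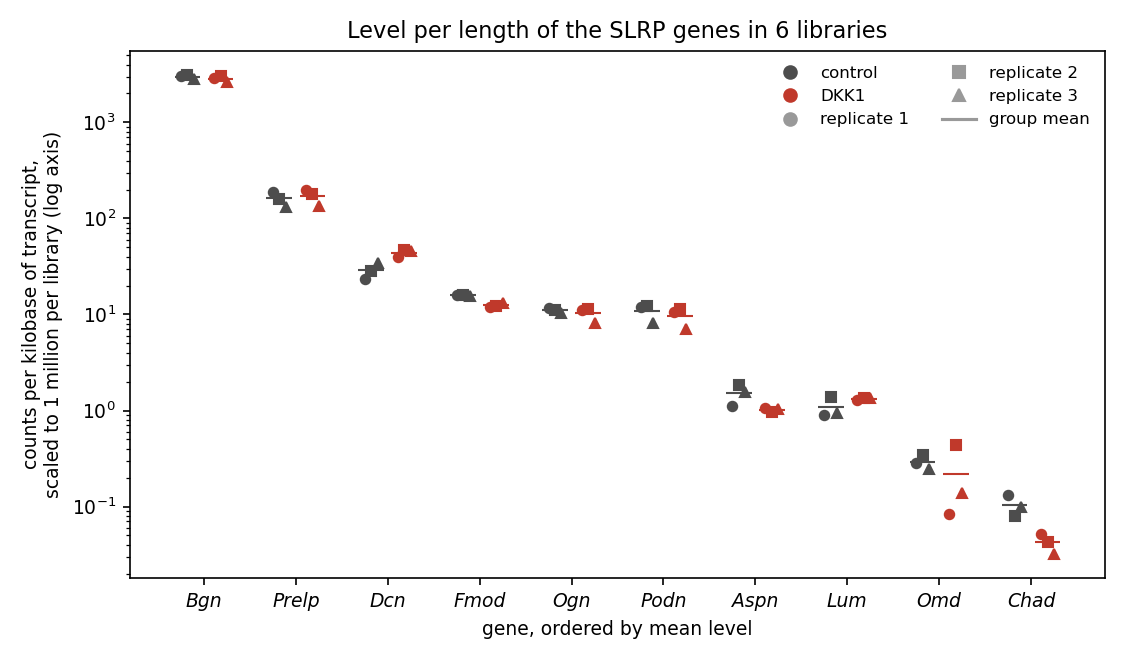
Level of each SLRP gene per kilobase of transcript, scaled to the same total in every library (log axis), in the 3 control (grey) and 3 DKK1 (red) libraries; symbols give the replicate number and short lines the group means. Bgn lies between 2660 and 3130 in all libraries, above Prelp at 133 to 199 and Dcn at 23.5 to 46.4, and Omd and Chad lie lowest.

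With DKK1, Fmod fell in both fits made here, Dcn rose in the fit that takes the replicate number into account, and the abundant Bgn moved by only a few percent. Calls were made at adjusted p-values under 0.05 in edgeR's quasi-likelihood test with Benjamini-Hochberg adjustment over 14635 genes. With the group as the only term, 1 of the 8 tested SLRP genes was called, Fmod, which was lower, against 0.895% of all tested genes called (0.697% higher and 0.198% lower). Same-numbered samples deviated together from their group means, so the fit was also made with the replicate number as a block (the paired fit). It called 3 of the 8, Dcn higher and Fmod and Bgn lower, against 9.42% of all tested genes (4.96% higher and 4.46% lower). The CPM of the groups did not overlap in 3 of the 8 tested genes, Dcn, Fmod and Aspn, against 16.5% of all tested genes (9.4% with DKK1 higher and 7.14% with DKK1 lower). The median log2 fold change of the 8 genes was -0.09, with 3 higher and 5 lower, beside a median of -0.001 over all tested genes. With so few genes, these shares rest on 1 to 3 genes each.

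**Figure D2:**
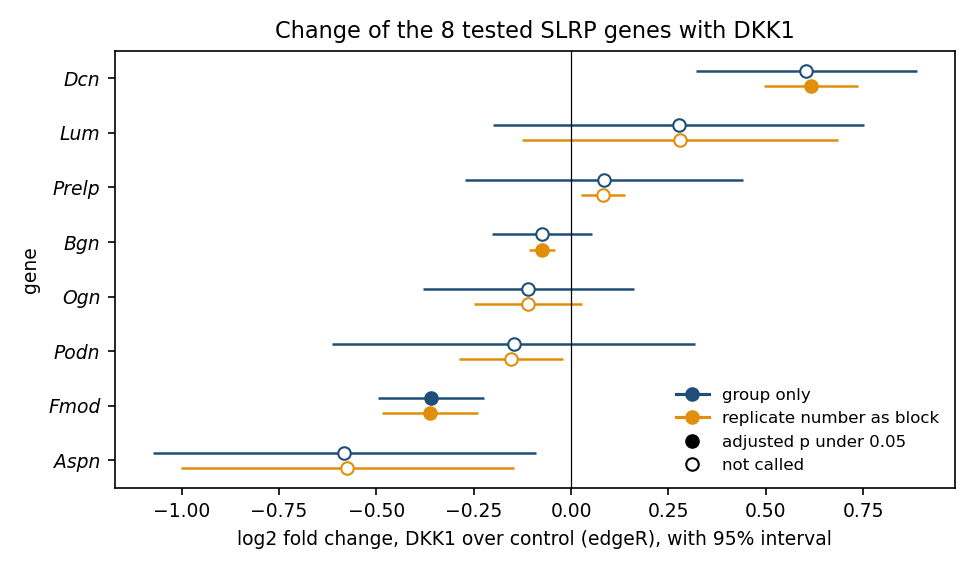
Log2 fold change of DKK1 over control for the 8 tested SLRP genes with 95% intervals, from edgeR with the group only (blue) and with a block for the replicate number (orange); filled points are called at an adjusted p under 0.05. Fmod is filled in both fits, at -0.36, and Dcn (0.60 and 0.62) and Bgn (-0.07 in both) only with the block.

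Decorin, biglycan and asporin form the first class of SLRPs. Decorin carries a single chondroitin or dermatan sulfate chain, binds collagen fibrils and holds TGF-beta in the matrix. Dcn (ENSMUSG00000019929, chr10:97479609-97518143, plus strand, GRCm38) measured 33.0, 39.9 and 48.8 CPM in control replicates 1, 2 and 3, and 55.7, 65.4 and 64.45 CPM in DKK1 replicates 1, 2 and 3. Every DKK1 library lay above every control library. From 744 to 2271 counts per library stood behind these values. The mean went from 40.6 ± 7.92 to 61.8 ± 5.35 CPM (SD, n = 3 each), log2 fold change 0.60 (SE 0.12, 95% interval 0.32 to 0.89; edgeR adjusted p = 0.0791) with the group only, and 0.62 (SE 0.06, adjusted p = 9.73e-06) with the block. The rise within same-numbered pairs was 0.75, 0.71 and 0.40 on the log2(CPM + 0.1) scale, smallest in replicate 3, whose control library had the most Dcn. Without replicate 3 in either group, Dcn was called in both fits, with log2 fold changes of 0.72 (edgeR adjusted p = 0.0369) and 0.72 with the block (adjusted p = 5.01e-06).

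Biglycan carries a pair of glycosaminoglycan chains, and when it is freed from the matrix it can be sensed by Toll-like receptors. Bgn (ENSMUSG00000031375, chrX:73483602-73495933, plus strand, GRCm38) measured 3690, 3818 and 3463 CPM in control replicates 1, 2 and 3 and 3512, 3700 and 3249 CPM in DKK1 replicates 1, 2 and 3. The groups overlapped, yet the DKK1 library was the lower of each same-numbered pair, by 0.07, 0.04 and 0.09 on the log2(CPM + 0.1) scale. The log2 fold change was -0.07 (SE 0.06, 95% interval -0.20 to 0.05; edgeR adjusted p = 0.72) with the group only and -0.07 (SE 0.02, 95% interval -0.11 to -0.04; adjusted p = 0.00826) with the block, or -5.0%. Without replicate 3 the paired fit did not call it (log2 fold change -0.07, edgeR adjusted p = 0.0821). The summed fibroblast markers were also lower in each pair, and their part in the Bgn result was not tested. The number of Dcn counts per 1000 Bgn counts went from 8.93, 10.5 and 14.1 in the controls to 15.9, 17.7 and 19.8 with DKK1. These values did not overlap (11.2 ± 2.65 against 17.8 ± 1.99, SD, n = 3 each); they are a description, since Dcn itself did not overlap.

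Asporin lacks the usual chain attachment site, binds collagen and limits the action of TGF-beta. Aspn (ENSMUSG00000021388) was scarce, with 44 to 97 counts per library. It measured 2.08, 3.43 and 2.91 CPM in control replicates 1, 2 and 3 and 1.95, 1.81 and 1.91 CPM in DKK1 replicates 1, 2 and 3. The DKK1 libraries were close together and all below the controls, of which replicate 1 was only just higher. The log2 fold change of -0.58 (SE 0.21, 95% interval -1.07 to -0.09) was not called by edgeR with the group only (adjusted p = 0.358) or with the block (adjusted p = 0.0972). Leaving out control replicate 2 brought it to -0.40 (edgeR adjusted p = 0.643). Aspn, Lum, Ogn and Podn had log2 fold changes of -0.575, 0.17, -0.03 and -0.13 without replicate 3 in either group, and none of these genes was called there (edgeR adjusted p of 0.572, 0.895, 0.933 and 0.672), nor with the block.

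The second class holds fibromodulin, lumican, PRELP and osteomodulin, whose members carry keratan sulfate chains or none. Fibromodulin binds collagen and guides its crosslinking by lysyl oxidase. Fmod (ENSMUSG00000041559, chr1:134037254-134048277, plus strand, GRCm38) measured 23.4, 23.4 and 22.9 CPM in control replicates 1, 2 and 3, and 17.2, 18.1 and 19.3 CPM in DKK1 replicates 1, 2 and 3. The controls were nearly identical, with a coefficient of variation of 1.35% against 4.19% given by counting error alone, and all DKK1 libraries lay below them. Fmod thus fell by 22.1%, from 23.2 ± 0.313 to 18.2 ± 1.03 CPM (SD, n = 3 each), with log2 fold change -0.36 (SE 0.06, 95% interval -0.50 to -0.22; edgeR adjusted p = 0.0344 with the group only and 0.00101 with the block). In the fit with the group only, the call was lost without control replicate 1, 2 or 3 or DKK1 replicate 1 or 2 (edgeR adjusted p of 0.07 to 0.149, log2 fold changes of -0.38 to -0.32) and without replicate 3 in both groups (-0.41, adjusted p = 0.0577), and the paired fit without replicate 3 kept it (adjusted p = 0.00297). The summed fibroblast, cartilage, leukocyte, and smooth muscle and myofibroblast markers were lower with DKK1 in each same-numbered pair, alongside Fmod and Aspn. The epithelial, endothelial, mesothelial and pericyte sums were not lower in every pair. The 7 cartilage markers summed to 35.1, 43.3 and 31.7 CPM in control replicates 1, 2 and 3 and to 30.6, 35.3 and 22.6 CPM in DKK1 replicates 1, 2 and 3, and of the 5 tested 2 were higher and 3 lower. Most of the fall in the sum was in Col2a1, which went from 21.2 ± 5.82 to 14.8 ± 6.70 CPM (SD, n = 3 each) and was called lower with the block (log2 fold change -0.50, edgeR adjusted p = 0.679 with the group only and 0.00222 with the block). The 6 smooth muscle and myofibroblast markers summed to 9569 to 10670 CPM in control and 8165 to 9522 CPM in DKK1 libraries. Their part in the Fmod and Aspn results was not tested.

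PRELP binds collagen and the heparan sulfate of basement membranes. Prelp (ENSMUSG00000041577), the second most abundant gene of the family, measured 336, 286 and 236 CPM in control replicates 1, 2 and 3 and 352, 321 and 240 CPM in DKK1 replicates 1, 2 and 3. The groups overlapped broadly, and the replicate number accounted for more of the difference between libraries than the treatment did: in both groups replicate 1 was highest and replicate 3 lowest. Within same-numbered pairs the DKK1 library was higher by 0.07, 0.17 and 0.02 on the log2(CPM + 0.1) scale. The log2 fold change of 0.08 was not called with the group only (SE 0.16, edgeR adjusted p = 0.916) or with the block (SE 0.03, adjusted p = 0.071), and without replicate 3 the paired fit called it at 0.11 (adjusted p = 0.0445). Fractional expected counts in all 6 libraries mean that part of its reads was shared with another gene, and it overlaps the antisense gene Gm15851, so its level carries that uncertainty.

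Lumican holds collagen fibrils at a regular width and spacing. Lum (ENSMUSG00000036446) measured 1.77, 2.72 and 1.85 CPM in control replicates 1, 2 and 3 and 2.51, 2.62 and 2.65 CPM in DKK1 replicates 1, 2 and 3, from 40 to 91 counts. Control replicate 2 lay above all DKK1 libraries and the other controls below them. The log2 fold change of 0.28 (SE 0.21, 95% interval -0.20 to 0.75) was not called (edgeR adjusted p = 0.719, and 0.448 with the block). Osteomodulin, first found in bone, binds cells through an integrin. Omd had 8, 12 and 7 counts in control and 3, 19 and 4 counts in DKK1 replicates 1, 2 and 3, too few to test.

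The remaining classes are each represented by a single gene. Osteoglycin, also called mimecan, is a small collagen-binding member. Ogn (ENSMUSG00000021390) measured 24.1, 23.0 and 21.2 CPM in control replicates 1, 2 and 3 and 22.5, 23.6 and 17.0 CPM in DKK1 replicates 1, 2 and 3. The groups overlapped, and DKK1 replicate 3 was the lowest library. Its log2 fold change of -0.11 (SE 0.12, 95% interval -0.38 to 0.16) was not called (edgeR adjusted p = 0.825, and 0.364 with the block). Podocan binds collagen and is known from the vessel wall and the kidney. Podn (ENSMUSG00000028600) measured 19.5, 20.5 and 13.5 CPM in control replicates 1, 2 and 3 and 17.6, 19.1 and 11.6 CPM in DKK1 replicates 1, 2 and 3. The replicate 3 libraries were low in both groups, below replicates 1 and 2 by 0.56 in control and 0.66 in DKK1-treated cells on the log2 scale. The DKK1 library was the lower of each pair, by 0.15, 0.10 and 0.22, but the log2 fold change of -0.15 was not called (SE 0.20, edgeR adjusted p = 0.876, and SE 0.06, adjusted p = 0.158 with the block). Podn overlaps the protein-coding gene Scp2 on the same strand. Its expected counts were whole in every library, and the part of this overlap in its level was not tested. Chondroadherin is a cartilage protein that binds cells through an integrin. Chad had 4, 3 and 3 counts in control and 2, 2 and 1 counts in DKK1 replicates 1, 2 and 3, at or under the floor of 3 counts in all but 1 library, and no fold is given.

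**Figure D3:**
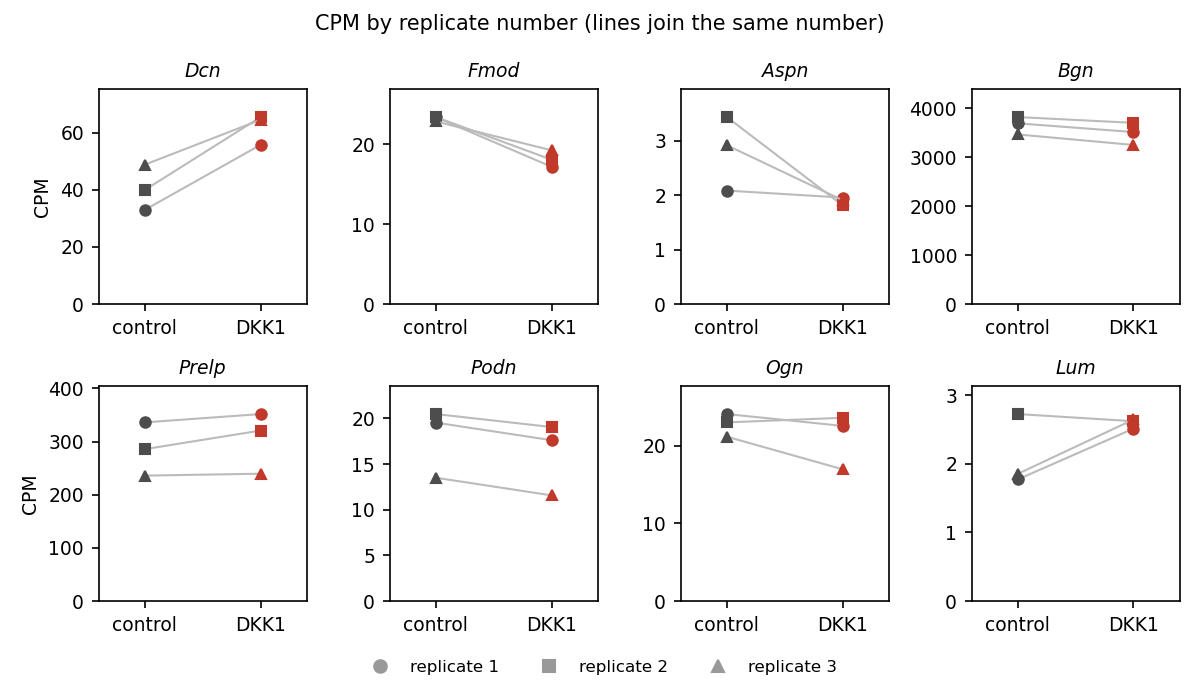
CPM of the 8 tested SLRP genes in control and DKK1 libraries, 1 panel per gene with its axis from 0; symbols give the replicate number and grey lines join equal numbers. All 3 lines rise for Dcn and fall for Fmod, while for Prelp and Podn the libraries are ordered mainly by replicate number, with replicate 3 lowest.

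Across the 6 libraries some members varied together. Pearson's r of log2(CPM + 0.1) was 0.95 between Bgn and Podn, 0.92 between Ogn and Podn, 0.89 between Bgn and Ogn and 0.79 between Prelp and Podn, genes that share low values in replicate 3. It was -0.82 between Dcn and Fmod and 0.74 between Fmod and Aspn, which follow the treatment groups. Lum had r of -0.01 with Bgn, 0.05 with Podn and -0.11 with Aspn, but 0.59 with Dcn and -0.56 with Fmod. These are descriptions over 6 libraries that share 2 groups and 3 numbers. Among 9217 other genes averaging 10 CPM or more, the 3 most like Dcn in pattern were Clmp (r = 0.994), Alad (r = 0.994) and Pqbp1 (r = 0.993), and the 3 most like Aspn were Mogs (r = 0.997), Rnf166 (r = 0.989) and Nfatc3 (r = 0.981). Of these only Clmp was called in either fit (log2 fold change 0.36, edgeR adjusted p = 0.0656 with the group only and 7.67e-05 with the block).

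Several SLRP genes lie near each other in the genome. Of the 4 neighbouring pairs, 2 hold the untested Omd. On chromosome 10, Dcn and Lum lie on the same strand 47.0 kb apart with no annotated gene between them; Dcn was the more abundant by far and rose in the paired fit, while Lum was not called (log2 fold changes of 0.60 and 0.28). On chromosome 13, Aspn, Omd and Ogn follow each other on the plus strand with gaps of 14.9 and 15.2 kb, inside the gene Cenpp on the opposite strand. The mean of Cenpp itself was 4.19 ± 0.464 CPM without and 4.70 ± 0.313 CPM with DKK1 (SD, n = 3 each), above the 2.81 and 1.89 CPM of Aspn; whether counting used strand is not given in the sources used here, so reads of these genes and Cenpp may not be separable. On chromosome 1, Prelp and Fmod point away from each other across 115.8 kb that hold 2 annotated genes, neither protein-coding, with log2 fold changes of 0.08 and -0.36.

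Because DKK1 acts on Wnt signalling, the bases upstream of the SLRP genes were searched for 4 heptamers bound by the Wnt effectors TCF and LEF, each made of CTTTG and then AA, AT, TA or TT. Both strands were searched in the 250 bases before each start in a RefSeq promoter table (GRCm38.p6), which holds 9 such windows of 8 members; Dcn and Lum are not among them. A match was found in 1 of the 9 windows, that of Bgn, and in 14.8% of all 32851 windows in the table. A second search, chosen after the first was seen and using only the shorter CTTTGA, matched 2 of the 9 windows (Bgn and Omd) and 13.8% of all windows, so the count of members depends on the letters chosen. The windows of Bgn, the gene that dominates the family, and of Fmod, the gene called in both fits, are shown 5′ to 3′, with the heptamer match in capitals. The Bgn window is chrX:73483351-73483600 and the Fmod window is chr1:134037004-134037253, both on the plus strand.
Bgn: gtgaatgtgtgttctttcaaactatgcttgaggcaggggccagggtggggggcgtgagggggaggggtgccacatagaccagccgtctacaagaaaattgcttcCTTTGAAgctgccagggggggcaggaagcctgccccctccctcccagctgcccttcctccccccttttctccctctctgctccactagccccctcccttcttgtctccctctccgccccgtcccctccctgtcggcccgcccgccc
Fmod: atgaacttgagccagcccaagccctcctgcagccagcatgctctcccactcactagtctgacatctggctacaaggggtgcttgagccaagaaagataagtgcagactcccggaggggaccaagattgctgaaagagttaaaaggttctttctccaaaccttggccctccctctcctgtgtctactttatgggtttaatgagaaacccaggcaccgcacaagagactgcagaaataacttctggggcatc
The capitals in the Bgn window mark CTTTGAA on the plus strand, whose first base lies at position -146 from the start. Fmod has no match in its window under either search; a match or its lack describes only these letters in this window.

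The genes that the SLRPs work with were counted from lists of related genes in the same fits. No list was tested, and the counts stand beside 0.697% of all tested genes called higher and 0.198% called lower with the group only, and 4.96% and 4.46% with the block. Among other SLRP genes, Kera, Epyc and Nyx had at most 10 counts in any library, and 5 of 8 were tested. Of these 0 were called by edgeR with the group only and 1 with the block, Tsku, which encodes tsukushi, a secreted inhibitor of BMP and Wnt signals. Tsku rose in the paired fit, from 75.6 ± 4.55 to 88.2 ± 4.17 CPM (SD, n = 3 each), log2 fold change 0.22 (SE 0.06, edgeR adjusted p = 0.153 with the group only and 0.00041 with the block). Podnl1, the next most abundant of the list, was at 1.65 ± 0.471 and 1.96 ± 0.316 CPM and was not called in either fit (log2 fold change 0.22).

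Of the 25 enzymes that build the linker and the chondroitin and dermatan sulfate chains carried by decorin and biglycan, 24 were tested and their median log2 fold change was -0.03. With the group only 1 was called and with the block 2 of 24, both higher, beside 9.42% of all tested genes called in either direction with the block. Chst11, a sulfotransferase of the chondroitin chain, rose from 132 ± 10.2 to 176 ± 16.2 CPM (SD, n = 3 each), log2 fold change 0.41 (SE 0.07, edgeR adjusted p = 0.0485, and 9.42e-06 with the block). Chst11 was not called with the group only in any fit without 1 sample. Csgalnact1, which starts the chondroitin chain, went from 10.0 ± 1.46 to 14.6 ± 0.755 CPM, log2 fold change 0.54 (SE 0.11, edgeR adjusted p = 0.074, and 0.00236 with the block). Ugdh, the most abundant gene of the list, makes the UDP-glucuronate used for the chains and was not called in either fit (log2 fold change 0.04). The xylosyltransferases Xylt1 and Xylt2, which start the linker, were not called in either fit, at log2 fold changes of -0.35 and -0.01. Dse and Dsel, the epimerases that turn chondroitin into dermatan sulfate, stood at 0.06 and 0.05 and were not called either. Of the 9 keratan sulfate enzymes, 7 were tested, 0 were called with the group only and 1 with the block, the galactosyltransferase gene B4galt1 (log2 fold change 0.18, edgeR adjusted p = 0.37, and 0.000297 with the block); the sulfotransferase gene Chst2 was not called in either fit (-0.06).

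All 20 genes of the list of matrix partners, which holds collagens, growth factors and CCN proteins and also elastin (Eln) and fibrillin 1 (Fbn1), were tested, with a median log2 fold change of -0.13, 3 higher and 17 lower, beside 7253 higher and 7371 lower among all tested genes. With the group only, 3 were called, all lower: Col6a3, a chain of collagen VI, at log2 fold change -0.41 (edgeR adjusted p = 0.00154), Eln, which encodes elastin, at -0.996 (adjusted p = 0.0076), and Tgfb3 at -0.39 (adjusted p = 0.0285). These 3 calls became 1 without DKK1 replicate 1 and 2 without control replicate 1, control replicate 3 or DKK1 replicate 2. With the block, 14 were called lower and 2 higher, beside 4.46% and 4.96% of all tested genes, the higher being Col12a1 and Tgfb1. Col1a1 and Col1a2, the chains of collagen I on whose fibrils decorin and biglycan lie, had log2 fold changes of -0.10 and -0.13 and were called only with the block (edgeR adjusted p = 0.00107 and 0.000123). Col14a1, a fibril-associated collagen, had -0.34 and was also called only with the block (adjusted p = 7.31e-06), as were Ccn4 at -0.19 (adjusted p = 2.42e-05) and the collagen V chain gene Col5a2 at -0.07 (adjusted p = 0.0233). Some of these genes had been reported from these libraries before the list was drawn up. The smooth muscle and myofibroblast markers summed above were lower alongside them, with 1 of 6 called lower with the group only and 6 of 6 with the block; their part in the matrix results was not tested.

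Of the 15 receptor genes, 14 were tested, with a median log2 fold change of 0.01. Cd14, the co-receptor through which biglycan reaches Toll-like receptors, rose from 9.31 ± 0.222 to 16.9 ± 1.18 CPM (SD, n = 3 each), log2 fold change 0.85 (SE 0.08, edgeR adjusted p = 0.0028, and 6.08e-06 with the block). Tlr2 and Tlr4 themselves had log2 fold changes of 0.28 and 0.11 and were not called in either fit, nor were the decorin receptor genes Egfr (0.07) and Met (-0.09) or the most abundant genes of the list, Itgb1 (-0.05) and Lrp1 (-0.05). Itga2, a chain of a collagen receptor, had 0.41 and was called only with the block (edgeR adjusted p = 3.33e-05). Cd14 is also a leukocyte gene. The summed leukocyte markers lay at 43.1 to 78.1 CPM in control and 40.9 to 69.8 CPM in DKK1 libraries. The sum was lower with DKK1 in each same-numbered pair, and of the 4 markers tested 1 was higher and 3 lower. Adgre1, a macrophage marker, went from 6.38 ± 2.67 to 9.35 ± 4.11 CPM (SD, n = 3 each; log2 fold change 0.54, edgeR adjusted p = 0.665 with the group only and 0.00179 with the block). Csf1r, another, went from 24.4 ± 8.94 to 20.2 ± 4.36 CPM (-0.28, adjusted p = 0.756, and 0.0364 with the block). Ptprc (-0.14) and Cd68 (-0.20) were not called in either fit. The part of leukocytes in the Cd14 result was not tested.

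Of the 16 proteases and their helper that process or cleave SLRPs, 14 were tested. With the group only 1 was called, Mmp3 (stromelysin 1), which cleaves several proteoglycans. It rose from 17.5 ± 2.30 to 39.6 ± 6.81 CPM (SD, n = 3 each), log2 fold change 1.18 (SE 0.13, edgeR adjusted p = 0.00742, and 1.25e-08 with the block). It was not called with the group only when control replicate 2 was left out. With the block 4 were called higher and 5 lower, beside 4.96% and 4.46% of all tested genes. Mmp13 and Mmp9 were among those higher (edgeR adjusted p = 2.51e-07 and 4.93e-06 with the block). With the group only, their log2 fold changes of 0.67 and 1.26 (SE 0.26 and 0.56) were not called (adjusted p = 0.385 and 0.481). The groups overlapped for both genes, and Mmp9 varied widely, at 7.568 ± 6.369 and 18.22 ± 10.72 CPM (SD, n = 3 each). Mmp14, a membrane-bound collagenase, and the cathepsin gene Ctss were among those lower, at -0.11 and -0.39 (edgeR adjusted p = 0.00195 and 0.000105 with the block). Ctss is also expressed by macrophages and varied widely, at 40.3 ± 16.8 and 31.1 ± 12.96 CPM (SD, n = 3 each; edgeR adjusted p = 0.752 with the group only). With the block, the macrophage marker Csf1r was lower (edgeR adjusted p = 0.0364) and the macrophage marker Adgre1 higher (adjusted p = 0.00179). The leukocyte markers Cd68 and Ptprc were not called in either fit. The part of leukocytes in the Mmp9 and Ctss results was not tested. Ctsb, another abundant cathepsin gene, was not called in either fit (-0.02). Bmp1, which removes the propeptide of biglycan, had means of 213 CPM without and 222 CPM with DKK1 and was not called in either fit (log2 fold change 0.05, edgeR adjusted p = 0.646, and 0.223 with the block).

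Among 25 other proteoglycan core proteins 24 were tested, with a median log2 fold change of -0.07. With the group only 1 was called, Vcan, the gene of the large chondroitin sulfate proteoglycan versican, which rose from 313 ± 7.94 to 442 ± 41.2 CPM (SD, n = 3 each), log2 fold change 0.50 (SE 0.07, edgeR adjusted p = 0.014, and 5.44e-07 with the block). Vcan was not called with the group only when control replicate 1 or 2 or DKK1 replicate 1 or 2 was left out. With the block 5 were called higher and 4 lower, beside 4.96% and 4.46% of all tested genes. Sdc4 and Tgfbr3, membrane proteoglycans that bind growth factors, were higher in that fit (0.23 and 0.38, edgeR adjusted p = 8.04e-05 and 4.12e-05 with the block), and Gpc3, Cspg4 and the basement membrane proteoglycan gene Hspg2 were lower (-0.32, -0.46 and -0.13, adjusted p = 0.000179, 0.000356 and 0.00583 with the block).

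**Figure D4:**
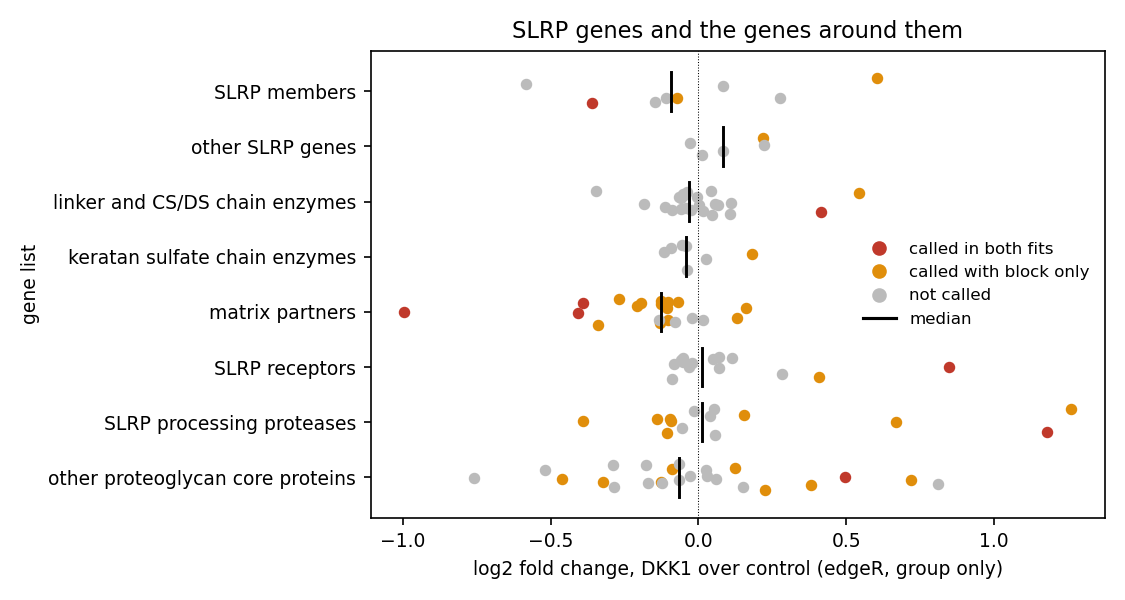
Log2 fold change of DKK1 over control (edgeR, group only) for the tested SLRP genes and for lists of related genes; each point is a gene, black bars are list medians, and colours mark genes called in both fits (red), with the block only (orange) or in neither (grey). The matrix partners (collagens, growth factors, elastin and fibrillin 1) have the lowest median, -0.13, and Mmp3 (1.18), Cd14 (0.85), Vcan (0.50) and Chst11 (0.41) are the genes called higher in both fits.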

How the data were processed

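Expected counts per gene were deposited for 6 samples in 1 table, 1 column per sample. The submitters' processing notes name STAR, RSEM and edgeR 4.2.1 and the builds GRCm38 and mm10, without roles; aligner settings, annotation release, strandedness and filters are not given in the sources used here. RSEM divides reads that match several genes, so deposited expected counts need not be whole, and 9.62% to 10.6% of all 45706 genes per column, those at 0 included, had a value that was not exactly whole. Symbols were found for 98.8% of identifiers. Positions, overlaps and transcript lengths came from GENCODE M21 (GRCm38), which holds 98.7% of the table's transcripts.

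Counts were rounded, filtered with filterByExpr (minimum count 10; 14635 genes kept), scaled with TMM and compared by edgeR 4.0.16 under R 4.3.3 (two-sided quasi-likelihood test), once with the group only and once with a block for the replicate number; SE is the log2 fold change over the root of F. Across genes, departures from the group mean correlated between samples of equal number at 0.28, 0.24 and 0.42 for numbers 1, 2 and 3, each over 0.1, and the pairing comes from the numbers in the titles. A floor of 3 counts equals 0.0864 to 0.133 CPM and covers counting error only, since PCR copies of a molecule are not told apart.

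The members and gene lists were chosen with earlier results of these data known, so no p was adjusted over a list and no list was tested. Named genes were the 10 members, up to 5 called genes and the 2 most abundant per list, and the 3 genes most alike in pattern to the members with the highest and lowest log2 fold change; Xylt1, Xylt2, Dse, Dsel, Tlr2, Tlr4, Egfr, Met, Bmp1, Col1a2, Col12a1, Tgfb1, Fbn1, Kera, Epyc, Nyx, Cenpp and the markers were named outside that rule, after their values were seen. Gm15851 and Scp2 were named only as overlapping genes. Alternatives were other scalings (DESeq2 1.42.0 size factors, library totals), filters, DESeq2, limma-voom (limma 3.58.1), unrounded counts, removal of GC and length trends, and leaving out samples.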

Additional observations from a re-analysis of the deposited data

How the results depend on the processing

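Across 19 other fits, of which DESeq2 with the block was chosen after seeing the data, Dcn stayed higher and Fmod, Aspn and Bgn lower in all of them. Dcn ranged from 0.48 to 0.75 and was called in 8 of the 19, Fmod from -0.41 to -0.32 and called in 13, Bgn from -0.12 to -0.02 and called in 3, and Aspn from -0.75 to -0.40 and called in 0 (adjusted p of 0.0563 to 0.909). Of the 8 SLRP genes, 1 was called with all samples and the group only, 2 without a low-count filter and with DESeq2, 3 with the replicate block, with the block and GC and length trends removed, with DESeq2 and the block, and with the block without replicate 3; the fits without 1 sample called 0 to 1. Without control replicate 3 and without replicate 3 in both groups the 1 call was Dcn, not Fmod. Signs turned for 3 SLRP genes in fits without 1 sample, none of which called them: Ogn ranged from -0.206 to 0.019 and Podn from -0.314 to 0.034, both positive without DKK1 replicate 3, and Prelp from -0.042 to 0.231, negative without control replicate 3 and without DKK1 replicate 1 (-0.034). Dcn was called without the low-count filter (adjusted p = 0.000696) and by DESeq2 (9.39e-05) and not by limma-voom (0.0654); the cause was not tested. Over all genes 131 were called (102 higher, 29 lower), and 1379 with the replicate block (726 higher, 653 lower), 1365 with the block and trends removed (647 higher, 718 lower), 1059 with the block without replicate 3, 551 with DESeq2 and the block, 329 without a filter, 289 with DESeq2, and 36 to 139 in the fits without 1 sample. Of the related genes called with the group only, Chst11 was lost with DESeq2 size factors, without replicate 3 in both groups and in every fit without 1 sample, Vcan in 4 of those 6, Mmp3 without control replicate 2, and the calls among matrix partners, Eln included, fell from 3 to between 1 and 2 in 4 of the 6; 1 receptor gene was called in each. Aspn and Lum had 40 to 97 counts per library, and the part of depth in their error was not tested; Omd and Chad were below the filter.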
